A study of Mus musculus with 26 samples.

Results

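Exonic peaks are regions that were recovered with the long noncoding RNA (lncRNA) MaTAR25 from 4T1 chromatin and whose midpoint lay in an annotated exon. They were taken as the rows of the peak list of the 4T1 total pool whose HOMER annotation starts with exon, and there were 2934 of them among 76806 peaks (3.82%). ChIRP-seq, chromatin isolation by RNA purification, pulls down an RNA from crosslinked chromatin with biotinylated DNA oligos and sequences the DNA that comes with it. The total pool held all 14 MaTAR25 oligos, and the even and odd pools held 7 of them each, by number. The pulldowns were made from 4T1 cells, a mouse mammary tumor line of BALB/c origin and wild-type genotype, in 2 total-pool, 3 even-pool and 2 odd-pool libraries, and in 2 total-pool libraries of NDL cells, mouse mammary tumor cells of the FVB strain whose label gives MMTV-PyMT while the study calls them MMTV-Neu-NDL. The 4T1 and NDL cells each had 1 pulldown with 8 oligos to Ppib mRNA (Cyclophilin B), against which the authors called the peaks at 50-fold enrichment. The lists used here are 1 for each pool and cell type, so a peak has no value per replicate. RNA-seq was made from 4T1 control cells (2 libraries) and from the MaTAR25 knockout lines KO1 (3 libraries) and KO2 (4 libraries). Each knockout line is 1 clone with a CRISPR/Cas9 deletion over the MaTAR25 transcription start site, and the control cells carry a guide to Renilla luciferase. All were grown in DMEM with 10% FBS, and the labels give no treatment.

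An exon is the part of a gene that stays in the mature RNA. First exons begin at the promoter, inner exons of protein-coding genes mostly hold coding sequence (CDS), and last exons hold the 3′ untranslated region (UTR) and are usually the longest. ChIRP recovers DNA, so an exonic peak is a stretch of chromatin whose midpoint lies in an exon, and it can be called in a gene that is not transcribed. A DNA oligo can also pair with genomic DNA that carries its own letters, and the use of separate even and odd pools addresses that.

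The letters of the oligos were found in many exonic peaks. At least 12 bases in a row of 1 of the 14 MaTAR25 oligos, read on either strand, were present in 708 of the 2934 exonic peaks (24.1%, 95% Wilson interval 22.6 to 25.7%). Such a match was present in 1.19% of regions of the same lengths 10 kb away, in 1.36% of regions 50 kb away, and in 599 of 50733 windows (1.18%) on other exons of the same genes that overlap no peak. The share in exonic peaks was close to the 24.2% of the whole list. The pairs below are shown because they are among the longest or highest-scoring matches outside MaTAR25 itself. Each 20-base oligo is followed by the 30 bases of GRCm38 in the exonic peak, on the strand that carries the oligo's letters, with the shared run in capitals.
Oligo 7: ttgGGAGTAACCTGGGGAAG
Elf5, chr2:103442786-103442815, minus strand: tgaaaaaGGAGTAACCTGGGGAAGaaagga
Oligo 8: CTTGCTCCAGAACGACAgcg
Cops8, chr1:90604422-90604451, plus strand: tttgtaCTTGCTCCAGAACGACAtgtaagt
Oligo 6: AGTCACAGAGAAGGACggcg
Col19a1, chr1:24526241-24526270, minus strand: acaatacAGTCACAGAGAAGGACcagagaa
Oligo 1: ggatCAATACTGTCCAAGCT
Bub1, chr2:127802920-127802949, plus strand: ctgtagaCAATACTGTCCAAGCTcattttc
Oligo 12: aataGGGAGAAGGGAGGCTc
Arpc5l, chr2:39009749-39009778, plus strand: cgggattGGGAGAAGGGAGGCTagcagagg
Oligo 4: CAGGTGGTGGAGATGgaatg
Kmt2d, chr15:98864074-98864103, plus strand: gaggcctCAGGTGGTGGAGATGtgggtgac
The shared runs are 17 bases long in Elf5 and Cops8, 16 in Col19a1 and Bub1, and 15 in Arpc5l and Kmt2d. These genes have unlike functions. Elf5 encodes an ETS transcription factor of the mammary epithelium, Cops8 a subunit of the COP9 signalosome, Col19a1 a collagen, Bub1 a kinase of the spindle checkpoint, Arpc5l a subunit of the Arp2/3 actin-nucleating complex, and Kmt2d a histone H3 lysine 4 methyltransferase.

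The longer the match, the higher the score of the peak. The score is the HOMER value of the list. No source used here gives its scaling, and it is compared only within the list. Exonic peaks with no match of 12 bases had a median score of 45.3 (2226 peaks), those with a longest match of 12 bases 53.4 (377 peaks), of 13 bases 84.0 (227 peaks), of 14 bases 226.7 (70 peaks) and of 15 bases 442.7 (24 peaks). The 7 peaks with 16 bases had a median of 571.0, and the Elf5 and Cops8 peaks, with 17, scored 758.6 and 722.5. Matches of 14 bases or more were in 104 exonic peaks (3.54%), against 0.102% of the regions 10 kb away and 5 of the 50733 windows on other exons (0.00986%). The matches sat near the middle of the peaks: 625 of the 708 (88.3%) lay within 150 bp of the midpoint, at a median distance of 70 bp. In 353 peaks the longest match read along the strand of the gene and in 355 along the other strand. Exact matches of 12 bases or more to the 8 Ppib oligos were in 9 exonic peaks (0.307%) and in 1.02% of the regions 10 kb away. The peaks were called against the Ppib pulldown, which by design leaves out regions that the Ppib oligos recover, so this share is not an independent control.

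**Figure D1:**
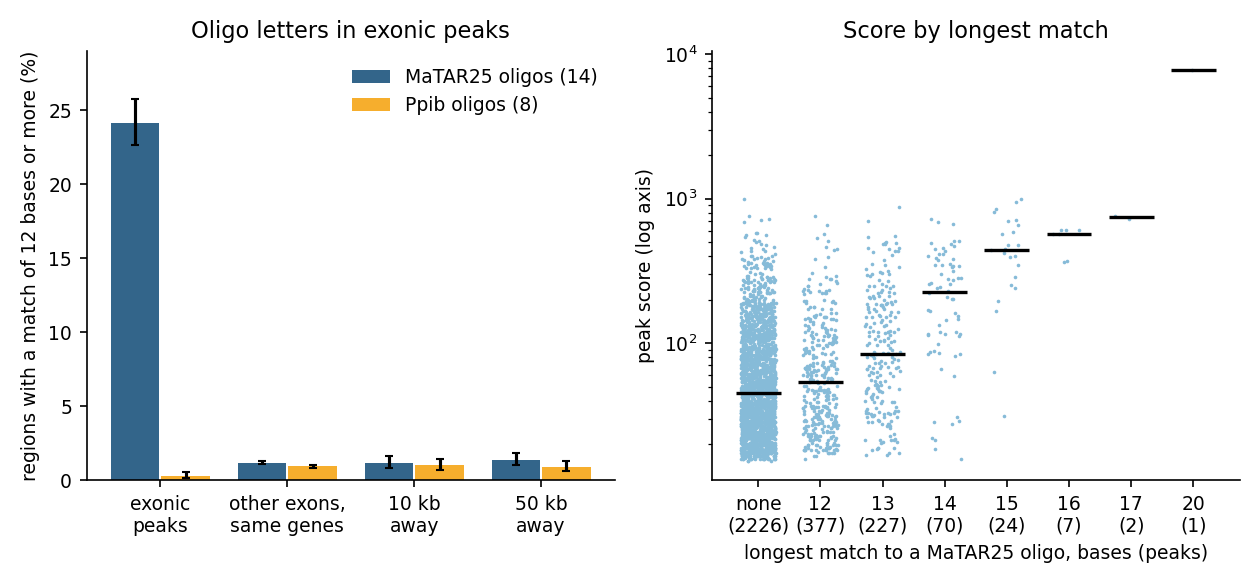
Left, share of regions with an exact match of 12 bases or more to a MaTAR25 oligo (blue) or a Ppib oligo (yellow), with 95% Wilson intervals, for the 2934 exonic peaks, 50733 windows on other exons of the same genes, and regions 10 kb and 50 kb away. The peaks were called against the Ppib pulldown, so the Ppib share in peaks is not an independent control. Right, score of each exonic peak on a log axis by its longest match to a MaTAR25 oligo, with the median as a black line: it lies at 45.3 without a match and at 571.0 for 16 bases.

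The oligos did not match equally often. Oligo 4 matched 146 exonic peaks (4.98%, Wilson interval 4.25 to 5.82%) and oligo 12 matched 136 (4.64%, 3.93 to 5.46%), and oligos 6 and 5 followed with 83 and 79. The other 10 oligos matched 9 to 51 peaks each, with oligo 13 at the low end and oligo 3 at the high end. Exonic peaks differed from the whole list here: oligo 4 matched 3.83% and oligo 12 matched 6.68% of all peaks. For oligo 4 the difference was not particular to them: it matched 4.92% of promoter peaks and 4.10% of transcript-end peaks. For oligo 12 the exonic share was the lowest of the classes, below 5.41% of transcript-end, 6.48% of intron, 7.09% of intergenic and 7.35% of promoter peaks. Its interval overlapped that of transcript-end peaks (4.65 to 6.28%). The 12 bases behind most oligo 12 matches are purines, and those behind many oligo 4 matches are a run of GGTGG, shown here in capitals with the count of exonic peaks that hold them, 70 and 41.
Oligo 12: aataGGGAGAAGGGAGgctc
Oligo 4: cAGGTGGTGGAGAtggaatg
The purine word was in 2.39% of exonic and 3.55% of all peaks, and the word of oligo 4 in 1.40% of exonic and 0.771% of all peaks. The motif GGTGG or its complement CCACC, without an oligo match being asked for, was in 80.4% of exonic peaks, 73.9% of the windows on other exons and 69.9% of regions 10 kb away. A run of at least 4 TGG or CCA was in 120 exonic peaks (4.09%), in 0.404% of the windows on other exons and in 0.852% of the regions 10 kb away. These are matches of letters and were not tested as binding sites.

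Sharing with the even and odd lists followed the pool of the matching oligo. Of the 1179 exonic peaks that shared at least 1 bp with the even list and not with the odd list, 17.8% matched an even oligo and 0.848% an odd oligo. Of the 566 in the odd list and not in the even list, 32.5% matched an odd oligo and 4.42% an even one. The 588 peaks found in both lists matched even oligos in 27.0% and odd oligos in 7.65%, and the 601 found in neither in 13% and 1.5%. Among the 493 exonic peaks in all 3 other lists, 28.0% matched an even and 7.91% an odd oligo. Most peaks of each class held no match of 12 bases.

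**Figure D2:**
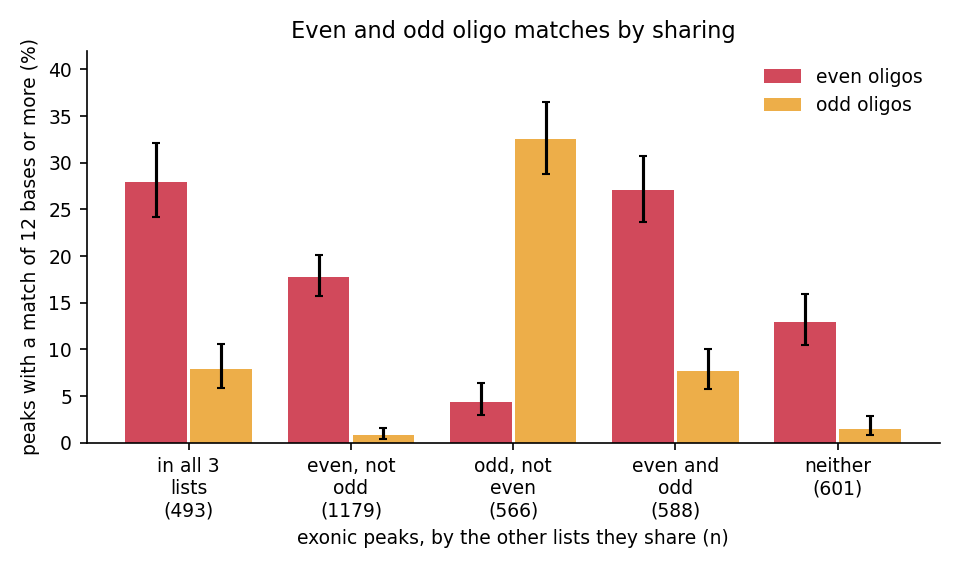
Share of exonic peaks with an exact match of 12 bases or more to an even oligo (red) or an odd oligo (yellow), with 95% Wilson intervals, by the other lists the peaks share (number of peaks in brackets). Odd matches reach 32.5% in peaks shared with the odd list alone of the 2 pools and 0.848% in peaks shared with the even list alone.

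Of the exonic peaks, 1767 (60.2%, Wilson interval 58.4 to 62.0%) shared at least 1 bp with a peak of the even list, 1154 (39.3%, 37.6 to 41.1%) with the odd list and 1939 (66.1%, 64.4 to 67.8%) with the NDL list. The whole total-pool list shared 61.1%, 37.7% and 66.4%. All 3 other lists held 493 of the exonic peaks (16.8%, 15.5 to 18.2%), compared with 13.4% of the whole list and 12.8 to 14.1% of the intergenic, promoter, intron and transcript-end peaks. The exonic peaks also scored higher than the list, and sharing moved with score. None of the 3 lists held 319 (10.9%, 9.80 to 12.1%), against 9.47% of the whole list. The most frequent combination was the even and NDL lists without the odd list (811 peaks), followed by the even list alone (368), the odd and NDL lists (353), the NDL list alone (282), the odd list alone (213) and the even and odd lists without NDL (95). The partner peak was itself annotated as exonic in 85.9% of the cases in the even list, 85.4% in the odd list and 86.7% in the NDL list. The even list used here holds 0 peaks on chromosome 3 and 8877 on chromosome 2, so none of the 159 exonic peaks of chromosome 3 could be shared with it. They make up 65 of the 566 peaks in the odd and not the even list and 94 of the 601 in neither. On chromosome 2, 142 of 222 exonic peaks (64.0%) were shared with the even list. Without chromosomes 2 and 3 the even share was 63.7% and the share in all 3 lists 17.7%. These intervals cover counting error only, since a peak is not a replicate and each list stands for several libraries.

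Exonic peaks with a high score were shared more often. The exonic peaks were put into 4 equal classes by score. In class 1, with the highest scores, 81.3% of exonic peaks were in the even list, 58.6% in the odd list, 84.7% in the NDL list and 40.2% in all of them. In class 4, with the lowest scores, these shares were 36.6%, 27.9%, 41.1% and 0.954%. Peaks in none of the other lists made up 2.18% of class 1 and 25.9% of class 4. The median score was 125.2 for exonic peaks in all 4 lists and 23.9 for those in the total list alone, and their median lengths were 625 and 500 bp. Oligo matches went along with this, from 37.6% of class 1 through 22.9% and 19.1% to 16.9% of class 4.

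**Figure D3:**
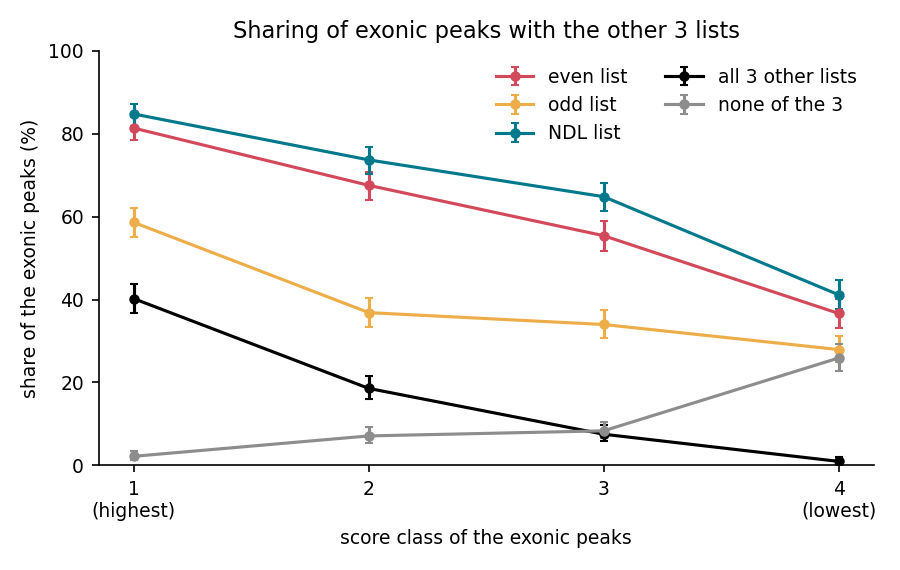
Share of exonic peaks that overlap the even, odd and NDL lists, all 3 or none, by score class from 1 (highest) to 4 (lowest), with 95% Wilson intervals. Sharing with all 3 lists lies at 40.2% in class 1 and 0.954% in class 4.

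The exons themselves were mostly long last exons and single exons. By the transcript named in the annotation, 1219 peaks (41.5%, Wilson interval 39.8 to 43.3%) lay in a last exon, 892 (30.4%, 28.8 to 32.1%) in an inner exon, 613 (20.9%, 19.5 to 22.4%) in the exon of a single-exon transcript and 210 (7.16%, 6.28 to 8.15%) in a first exon. HOMER names bases from 1 kb before to 100 bp after a start as promoter, and the 100 bp before a transcript end as transcript end, so much of first exons cannot be called exonic. Of the annotated exon bases left after this trimming, 41.5% are in last, 40.2% in inner, 10.3% in single and 8.04% in first exons. Last exons therefore held the same share of peaks as of bases, single exons more and inner exons fewer. The median exon under a peak was 1225 bp long, and the median over all annotated exons, each counted once, was 152 bp. A midpoint falls more often in a long exon than in a short one, so these medians are not like measures. Under a peak the median was 2340 bp for last exons, 2042 bp for single exons, 550 bp for first exons and 168 bp for inner exons. A peak in a last exon typically lay wholly inside it (median 100% of its bases), while a median of 30.5% of the bases of a peak in an inner exon were exon and the rest flanking sequence.

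**Figure D4:**
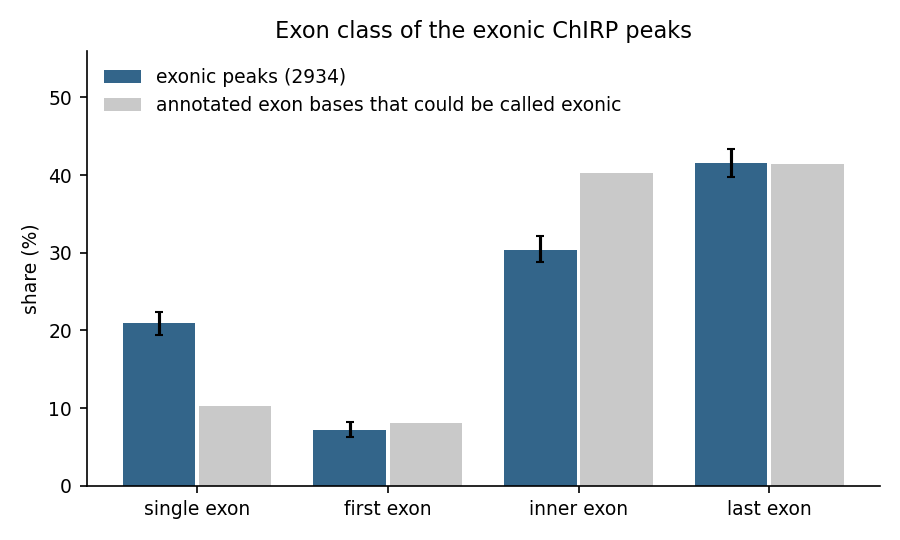
Share of the 2934 exonic peaks by exon class of the transcript in their annotation (blue, with 95% Wilson intervals), beside the share of annotated exon bases that could be called exonic (grey). Single exons hold 20.9% of peaks and 10.3% of bases, inner exons 30.4% and 40.2%.

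By the transcript named in the annotation, fewer exonic peaks were coding than the word exon may imply. The midpoint lay in an exon of a noncoding transcript in 1323 peaks (45.1%), in CDS in 922 (31.4%), in a 3′ UTR in 617 (21%) and in a 5′ UTR in 68 (2.32%). The named transcript decided the part, so a midpoint counted as noncoding can be CDS in another transcript. The share of CDS may thus be too low. Inner exons were CDS in 74.0% of cases, last exons a 3′ UTR in 46.2%, and single exons noncoding in 86.9%. The noncoding exons came partly from protein-coding genes: 2143 peaks (73.0%) belonged to a protein-coding gene but 1518 (51.7%) to a protein-coding transcript, and 433 (14.8%) lay in transcripts annotated as retained introns. Pseudogenes held 275 peaks (9.37%), of which 213 were processed pseudogenes, which are reverse-transcribed copies of mRNAs without introns. lincRNAs held 191 (6.51%), genes of the class TEC, whose transcripts await experimental proof, 168 (5.73%) and antisense genes 86 (2.93%). By part, the median score was 58.1 in CDS, 57.1 in 5′ UTRs, 46.3 in noncoding exons and 45.9 in 3′ UTRs. Peaks in CDS were in all 3 other lists in 20.1% of cases (Wilson interval 17.6 to 22.8%) and peaks in 3′ UTRs in 13.6% (11.1 to 16.5%). Pseudogene peaks had a median score of 56.9, and reads of such near-copies may map to either copy, so their peaks are uncertain.

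Exonic peaks had a median score of 49.8 (interquartile range 28.3 to 105.9), above the 42 of all peaks and of intron peaks and the 40.8 of intergenic peaks, and next to the 49.4 of promoter peaks. A score of at least 100 was reached by 771 (26.3%) of them and by 21.1% of all peaks, and 52 were among the 1000 highest-scoring peaks. Lengths did not set them apart. The median was 500 bp, as for the whole list, 57% were exactly 500 bp long (59.9% of all peaks), and 100 (3.41%, 3.88% of all peaks) reached 1000 bp. A median of 10.8% of their bases were soft-masked as repeats, compared with 18.6% in intron peaks, 24.0% in intergenic peaks and 10.0% in the windows on other exons, and their median GC content was 46.2%. The exonic share of the peaks varied between chromosomes from 2.42% on chromosome 16 to 5.87% on chromosome 7.

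The highest exonic peak, and the highest of the whole list, was MaTAR25 itself (1200007C13Rik). It spans chr2:167827384-167829742 over exon 2 of 2, is 2359 bp long, the longest exonic peak, and scored 7720.7. It also ranked 1 in each of the other lists, and it holds the letters of 12 oligos, because oligos 3 to 14 were designed to exon 2. This peak contains the target of the pulldown and is set apart from the others.

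After MaTAR25, the exonic peaks with the highest scores lay in genes of many kinds. Gm8292, a processed pseudogene, scored 996.8 (chr1:55335160-55335909, rank 46 in the list) with no oligo match. Arpc5l scored 989.0 (chr2:39009462-39010820) in an exon of a noncoding transcript, and ranked 49 in the even list, 3591 in the odd list and 32 in the NDL list, with its match to the even oligo 12. Elf5 had the opposite order: its peak (758.6, chr2:103442574-103443198) ranked 57 in the odd list, 58 in the NDL list and 51936 in the even list, with its match to the odd oligo 7. In both cases the peak ranked higher in the pool that carries the matching oligo. The same held for Cops8 (722.5, chr1:90603904-90605109), with its match to the even oligo 8, which ranked 254 in the even list and 14663 in the odd list. Itgae (705.6), which encodes integrin alpha E, had a match of 15 bases to the odd oligo 7 in exon 13 of 31. It was in the odd list (rank 113) and the NDL list (rank 213) but not in the even list. Pcnx2 (879.9), with a match of 13 bases to the even oligo 12, was in the even list (rank 41) and the NDL list (rank 253) but not in the odd list. Most of the other high peaks with a match did not follow this order.

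Kmt2d (840.2, chr15:98863495-98864513, CDS of exon 11 of 55) ranked 479 in the even, 622 in the odd and 18 in the NDL list. Kremen1 (813.2, chr11:5206397-5207472, 3′ UTR), a receptor for the Wnt inhibitor Dickkopf, ranked 248, 119 and 480. Tnrc6c (726.0, chr11:117721098-117721722, CDS of exon 5 of 22), which encodes a GW182 protein of microRNA silencing, ranked 999, 401 and 445. Gm47139 (946.6) ranked 171, 36 and 110, and Armc6 (755.9) ranked 771, 333 and 931. All 5 match an oligo of the even pool, oligo 4 or 6, yet all but Kmt2d ranked higher in the odd list than in the even list. The other peaks of the 15 with the highest scores were in Rnf122 (762.1), Gm6506 (722.1) and Gm13369 (713.9). Of the 15, 11 held an oligo match of 12 bases or more and 9 of 14 or more, 12 were in all 3 other lists, and 10 belonged to protein-coding genes. Bub1 (604.0, chr2:127802647-127803398, exon 24 of 25) and Helz2 (545.5, exon 1 of 5) had the highest peaks outside chromosome 18 with a match to oligos 1 and 2. These oligos lie in exon 1 of MaTAR25. After MaTAR25, the longest exonic peaks were those of Klhl18 (2326 bp, score 263.3), Dnm2 (1941 bp, 353.2), Rab10os (1832 bp, 69.9) and Celsr1 (1812 bp, 250.0), and of these the Celsr1 peak held a match.

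The 2934 peaks fell in 2743 genes, and 3 peaks had no gene in the GENCODE vM21 annotation used here. There were 2578 genes with 1 exonic peak, 151 with 2, 7 with 3, 6 with 4 and 1 with 6. The gene with 6 was D10Wsu102e, all in 1 last exon of 122802 bp that is annotated as 3′ UTR, with scores from 64.8 to 124.0. Htt, the huntingtin gene, had 4, with scores of 28.3, 87.1, 287.7 and 329.3, and the higher pair lay in CDS of exons 16 and 37 of 67. Ttn, which encodes the sarcomere protein titin, had 4 in exons 34, 191, 283 and 305 of 313, with scores of 15.7, 89.5, 19.6 and 352.8. Col4a4, a basement membrane collagen, had 4 in short inner CDS exons (18.8 to 297.9), and Mast4, a kinase gene, had 4, of which the highest (437.2) holds a match of 15 bases. In the count table, the 161 genes with 2 or more exonic peaks had a median exonic length of 9218 bp (shortest 1935 bp), and the 2309 with 1 peak had 4789 bp.

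The share of genes with an exonic peak rose more steeply with exonic length than with expression. In 4 equal length classes of the protein-coding genes in the count table, the share was 2.40% in class 1 (up to 1993 bp), then 5.75% and 9.0%, and 19.1% in class 4 (5838 bp or more). By control expression, the share was 7.04% (Wilson interval 6.50 to 7.62%) of genes with no count in at least 1 control library, 9.67% (8.59 to 10.9%) of genes whose lower control library was below 1 CPM (counts scaled to a common library total after TMM), 7.68% (6.6 to 8.93%) at 1 to 10 CPM, 10.2% (9.51 to 11%) at 10 to 100 CPM and 13.2% (11.9 to 14.6%) above 100 CPM. The median exonic length rose over these 5 bins from 2353 through 3042, 3564 and 4583 to 5812 bp, while the share did not rise at each step. Within length class 4, 18.7% (17.5 to 19.9%) of the genes at 1 CPM or more in both control libraries and 20.3% (18.3 to 22.4%) of the others had a peak. In length class 2 these were 4.65% (3.89 to 5.54%) and 6.72% (5.86 to 7.70%). In each of the 4 length classes the share was lower among the expressed genes than among the others, with overlapping intervals except in class 2, and over all lengths the order was the reverse.

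Many genes with an exonic peak were silent in 4T1 cells. Of the 2743 genes, 2470 were in the count table. There, 1181 (47.8%) reached 1 CPM in both control libraries, compared with 25.9% of all genes in the table, and 493 (20.0%) had 0 counts in all 9 libraries, compared with 41.7%. Of protein-coding genes with a peak, 1138 of 1950 (58.4%) reached 1 CPM, against 9789 of 19551 (50.1%) of those without, and 43 of 520 (8.27%) of the genes of other types did. The share was highest for genes with a peak in an inner exon (59.1%), then last (51.4%), first (39.8%) and single exons (22.8%). It was 50.4% for genes whose highest peak scored at least 100, 46.8% for the others, and 45.2% for genes whose peak was in all 4 lists. Per kilobase of exon, expressed genes with a peak had a median of 7.22 RPKM in control cells, and all expressed genes 8.36.

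Chemosensory receptor genes with an exonic peak were nearly all silent, and few genes of these families, with or without a peak, had enough counts to be tested. Olfactory receptors, which are made in the nose, held exonic peaks in 66 of 1050 genes (6.29%), and 62 of the 66 had 0 counts in every library. Vomeronasal receptors, pheromone receptors, held them in 28 of 295 genes (9.49%), 26 of them with 0 counts. Over the whole families, 4 of the 1050 olfactory and 1 of the 295 vomeronasal receptor genes could be tested, and 0 of those with a peak. The silence is thus not particular to the genes with a peak. Peaks in Vmn1r193, Vmn1r195, Vmn1r198 and Vmn1r201 lay within the same cluster on chromosome 13, scored 286.5 to 358.7 and were in all 4 lists. These receptors are near-copies of each other, so reads may be shared between them. Olfr1336 (362.2) holds a match of 16 bases to oligo 9.

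The share with an exonic peak differed widely between gene groups, highest in the group of the longest genes. Among 43 genes for very long proteins, with a median exonic length of 18450 bp, 20 (46.5%) had an exonic peak, 31 peaks in all, with examples in Ttn, Ryr1 (261.0), Usp34 (4 peaks of 39.6 to 177.0) and Macf1 (155.8 and 22.8). Of 56 chromatin regulators (median 11770 bp), 13 (23.2%) had one, with 16 peaks in Kmt2d, Arid1a (156.6 and 44.0), Arid1b (107.9 and 38.5), Brd1 (95.4) and 9 others. The share was 18.2% of mucins (Muc5b with 484.3 and 191.9, and Muc6), 16.3% of 43 focal adhesion and actin genes (7, led by Myh9 with 374.4), 15.6% of 45 collagens, 15.1% of 53 keratins (8, led by Krt14 with 279.4), 11.6% of 371 solute carriers (43, led by Slc12a5 with 701.3), 10.6% of 482 zinc finger genes (51, led by Zfp827 with 478.4) and 8.70% of 69 protocadherins. Of 80 histone genes, whose median exonic length is 619 bp, 1 had a peak, H3f3b (1.25%). Over all protein-coding genes the share was 9.07%, at a median of 3535 bp. Among 15 genes picked from those the study names, MaTAR25 alone had an exonic peak. The motif factors ZBTB7C and ZNF354C, which the study also names, are not among the 15. An exonic peak was present in Zbtb7c (200.5) and in Zfp354c.

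MaTAR25, the gene deleted in the knockouts, was at 0.768 and 0.915 CPM in the control libraries (35 and 30 counts). It was at 0.0319, 0.232 and 0 CPM in KO1 and at 0.307, 0.0421, 0.203 and 0.123 CPM in KO2. Every knockout library was below both controls, at few counts. The log2 fold change was −2.63 ± 0.82 (SE) over both clones (Benjamini-Hochberg adjusted p = 0.0561 by edgeR's quasi-likelihood test). Within KO1 it was −3.39 (adjusted p = 0.0341), and within KO2 −2.26 (adjusted p = 0.0785). Without control replicate 1 or 2 the adjusted p over both clones was 0.260 and 0.300. Gene counts ran from 25367211 to 61110585 per library, 10.1 to 11.5% of them on genes with an exonic peak. The epithelial genes Krt8 (410.5 to 1410.0 CPM), Krt18 (539.8 to 1411 CPM) and Epcam (103.5 to 487.5 CPM) were present in all libraries, and the leukocyte gene Ptprc and the endothelial gene Pecam1 stayed at or below 0.904 CPM. The sources used here do not say whether libraries of a group came from separate cultures, so the p-values measure the spread between these libraries, which may be technical.

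Genes with an exonic peak were called in KO against control in 20.9% of cases, next to 22.6% of all tested genes. Of the 1416 that could be tested among 15023 genes, 133 (9.39%) rose and 163 (11.5%) fell in KO against control at an adjusted p under 0.1, where 11.9% of all tested genes rose and 10.7% fell. In KO1, 175 (12.4%) rose and 250 (17.7%) fell, against 15.9% and 15.7% of all tested genes. In KO2, 198 (14.0%) rose and 230 (16.2%) fell, against 16.5% and 15% of all. KO1 and KO2 were compared with the same 2 control libraries. The median log2 fold change of the 1416 genes was −0.027 in KO, −0.098 in KO1 and −0.019 in KO2, beside 0.055, 0.021 and 0.034 over all tested genes. Knockout and control libraries did not overlap for 455 of them (32.1%), against 34.4% of all tested genes. These counts depended on the control libraries. The KO count of 296 was 36 without control replicate 1 and 43 without control replicate 2, when 2.95% and 3.61% of all tested genes were called. The KO1 count of 425 was then 129 and 153 (8.79 and 10.3% of those tested, against 9.46 and 11.1% of all genes), and the KO2 count of 428 was 132 and 135 (8.99 and 9.1%, against 8.72 and 9.15%).

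Split by exon class, score and sharing, more genes fell than rose in every subset except inner and single exons. The share that fell was 9.72 to 13.3% in these subsets, near the 10.7% of all tested genes. The share that rose was 4.20 to 12.5%, where 11.9% of all tested genes rose. The subsets are cut from the same genes and overlap. In KO against control, 54 of 545 genes with a peak in an inner exon rose and 54 fell, 53 of 641 with one in a last exon rose and 85 fell, 8 and 10 of 86 for first exons, and 18 and 14 of 144 for single exons. Of 417 genes with a score of at least 100, 35 rose and 52 fell. Of 235 whose peak was in all 4 lists, 17 rose and 24 fell, and of 119 with several peaks, 5 rose and 14 fell. None of these subsets was tested against the others. The clones differed from each other in 291 of the 1416 genes (adjusted p under 0.1), 125 higher (8.83%) and 166 lower (11.7%) in KO1, where 9.43% and 10.2% of all tested genes were.

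Of the genes with the 15 highest peaks, those called in KO against control were MaTAR25, which is the deleted gene, Arpc5l and Tnrc6c, and they fell. Over all tested genes 10.7% fell and 11.9% rose, so these few calls show no direction for the group. Of the 15, Gm47139 was not in the count table, and Pcnx2, Gm6506 and Gm13369 had too few counts to be tested. Arpc5l was at 95.8 and 104 CPM in control, 63.1, 51.3 and 54.3 in KO1 and 68.1, 57.7, 61.6 and 52.2 in KO2. All knockout libraries were below both controls, and it fell by 0.78 ± 0.15 on the log2 scale (edgeR's quasi-likelihood test, adjusted p = 0.00801). Tnrc6c was at 109 and 113 CPM in control, 51.5 to 61.5 in KO1 and 54.7 to 75.9 in KO2, and it fell by 0.86 ± 0.16 (adjusted p = 0.00748). Without control replicate 1 or 2, neither passed the threshold, with an adjusted p of 0.102 and 0.132 for Arpc5l and 0.106 and 0.113 for Tnrc6c. Kmt2d, with 127 and 121 CPM in control, 84.0, 94.0 and 104.6 in KO1 and 140.1, 126.2, 125.3 and 97.1 in KO2, overlapped between groups and was not called (adjusted p = 0.592). Kremen1 (0.682), Cops8 (0.543), Rnf122 (0.196) and Bub1 (0.129) were not called either, at the adjusted p given. Elf5 stayed at or below 0.054 CPM in all libraries and was not tested, and Col19a1, Olfr1336 and Vmn1r201 had 0 counts in all 9.

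Calls in KO against control are given by gene group for the members with a peak. Over all tested genes 11.9% rose and 10.7% fell. The groups are small and were not tested against each other or against all genes. Of 13 tested chromatin regulators with a peak, 1 rose and 4 fell (median log2 fold change −0.174), and over the whole list 7 rose and 10 fell of 56. Among them Arid1a, a subunit of the BAF remodeling complex, was at 254 and 276 CPM in control, 141 to 155 in KO1 and 168 to 219.5 in KO2, and it fell by 0.59 ± 0.18 (edgeR's quasi-likelihood test, adjusted p = 0.0530). Of 45 zinc finger genes, 0 rose and 7 fell by edgeR (median −0.229), while 1 rose at an unadjusted p under 0.05 and DESeq2 called 1 higher and 8 lower. Over the whole family, with or without a peak, 15 rose and 64 fell of 393. Zfp827 was at 83.9 and 86.3 CPM in control and 39.9 to 60.7 in the knockouts, and fell by 0.80 ± 0.18 (adjusted p = 0.0155). Of 30 solute carriers 4 rose and 4 fell (median −0.036), with 27 and 30 of 217 over the whole family, and of 17 genes for very long proteins 1 rose and 0 fell (0.0687) by edgeR and by DESeq2, and 2 had an unadjusted p under 0.05. By edgeR or DESeq2, no gene was called among the 7 focal adhesion and actin genes (median −0.104), 4 protocadherins (0.239), 3 keratins (0.0571), 1 mucin and 1 histone tested, and 1 of these, a focal adhesion and actin gene, had an unadjusted p under 0.05. Of 3 collagens 1 rose and 1 fell, with 2 and 7 of 24 over the whole family, and of all 42 tested focal adhesion and actin genes 7 rose and 5 fell. Over the whole lists, 1 rose and 1 fell of 25 genes for very long proteins and 2 and 2 of 24 protocadherins. For keratins these counts were 0 and 1 of 15, for histones 1 and 2 of 27, and for mucins 0 and 0 of 3. The focal adhesion genes were called in KO1 in 5 of 7 cases, 2 higher and 3 lower, and in KO2 in 0 of 7, with 0 at an unadjusted p under 0.05. The lower ones include Itgav, an integrin subunit, with a log2 fold change of −0.69 (adjusted p = 0.0178). Among the genes with most peaks, Col4a4 fell by 1.79 ± 0.35 (adjusted p = 0.0101) at control levels of 0.944 and 0.640 CPM, and Htt (0.972), Mast4 (0.693) and D10Wsu102e (0.276) were not called, at the adjusted p given. Rab10os, an antisense gene, was at 55.3 and 50.2 CPM in control and 24.3 to 37.1 in the knockouts and fell by 0.83 ± 0.18 (adjusted p = 0.0147). The strand setting of the counting is unknown, so its counts may include those of genes on the other strand. Without control replicate 1 or 2, the calls of Arid1a (adjusted p of 0.250 and 0.346), Zfp827 (0.161 and 0.164) and Rab10os (0.193 and 0.126) were lost, and that of Col4a4 was lost without control replicate 1 (0.207).

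Of the tested genes with an exonic peak, 115 (8.12%) rose and 153 (10.8%) fell with a mean of 1 CPM or more in a group and no overlap of knockout and control libraries, where 10.6% and 9.84% of all tested genes did, and the 6 with the largest change on either side are given with all values. Pcsk6, a proprotein convertase that cleaves growth factor precursors, was at 0.241 and 0.732 CPM in control, 20.1, 17.8 and 9.74 in KO1 and 11.4, 9.26, 24.5 and 6.09 in KO2. It was high in every knockout library, with a log2 fold change of 4.87 ± 0.76 (edgeR's quasi-likelihood test, adjusted p = 0.00390). Its peak lies in CDS of exon 4 of 20 (chr7:65927610-65928109, score 51.4). Xdh, xanthine dehydrogenase of purine breakdown, was at 1.6 and 3.23 CPM in control, 37.8, 84.9 and 75.6 in KO1 and 8.59, 4.55, 28.3 and 17.1 in KO2, which was higher in KO1 than in KO2 without overlap (3.93 ± 1.20, adjusted p = 0.0528). Mcpt8, a mast cell protease of basophils, was at 0.154 and 0.244 CPM in control and was at 1.94 to 8.52 in KO1 and 1.55 to 43.4 in KO2 (6.0 ± 1.78, adjusted p = 0.0472). Sgk2, a serum- and glucocorticoid-regulated kinase, was at 0.285 and 0.244 CPM in control and 0.926 to 14.8 in the knockouts (4.65 ± 1.18, adjusted p = 0.0263). Pla1a, a phospholipase, was at 0.241 and 0.153 CPM in control, 4.14 to 11.7 in KO1 and 0.294 to 2.09 in KO2 (4.18 ± 1.45, adjusted p = 0.0805). Col17a1, the hemidesmosome collagen, was at 0.219 and 0.275 CPM in control, 0.630 to 1.65 in KO1 and 0.384 to 9.30 in KO2 (3.8 ± 1.40, adjusted p = 0.0973). Without either control library, Pcsk6 stayed past the threshold, and the other 5 did not (adjusted p of 0.215 to 0.414). Pla1a was also not called without KO1 replicate 1 or 2 (0.107 each), nor was Col17a1 without KO1 replicate 3 or KO2 replicate 1, 2 or 4 (0.103 to 0.121).

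Of the genes that fell, Camk2n1, an inhibitor of the kinase CaMKII, was at 20.9 and 16.3 CPM in control, 0.191, 0.796 and 0.622 in KO1 and 0.279, 0.168, 1.81 and 0.225 in KO2. The groups lay far apart, with a log2 fold change of −4.98 ± 0.73 (edgeR's quasi-likelihood test, adjusted p = 0.00317). Its peak is in the 3′ UTR of the last exon (chr4:138456806-138457938, score 29.8). Ago4, an Argonaute protein, was at 11.2 and 9.61 CPM in control, 0.430, 0.232 and 0.108 in KO1 and 1.37, 1.10, 1.11 and 1.35 in KO2, lowest in KO1 (−3.67 ± 0.68, adjusted p = 0.00790). Map2k6, a kinase that activates p38, had 82 counts in the controls, 2 in KO1 and 2 in KO2, and from the summed counts over TMM library sizes it was 68.0-fold lower in KO1 (interval for counting error in the knockout 18.8 to 561) and 79.9-fold lower in KO2 (22.1 to 660.0). Its fitted log2 fold change was −5.94 ± 0.78 (adjusted p = 0.00205), and 2 exonic peaks lie in noncoding transcripts of the gene (48.7 and 43.6). Gm15413, an antisense gene with 2 peaks, was at 3.77 and 3.9 CPM in control and 0.143 to 0.730 in the knockouts (−3.31 ± 0.51, adjusted p = 0.00368). Grm3, a metabotropic glutamate receptor, was at 2.83 and 3.29 CPM in control, 0.108 to 0.589 in KO1 and 0 in all KO2 libraries, at least 154-fold lower in KO2 against a floor of 3 counts over the group on TMM library sizes (adjusted p = 0.0520 over both clones). Nkd2, a Wnt pathway antagonist, was at 2.66 and 2.35 CPM in control, 0, 0 and 0.0270 in KO1 and 0.0452 to 0.589 in KO2 (−3.9 ± 1.09, adjusted p = 0.0385). Without either control library, Camk2n1, Ago4, Map2k6 and Gm15413 stayed past the threshold, and Grm3 and Nkd2 did not (adjusted p of 0.182 to 0.241). DESeq2 did not call Grm3 (adjusted p = 0.232). The exonic peaks of these 12 genes scored 16.1 to 102.0, and that of Grm3 alone reached 100.

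**Figure D5:**
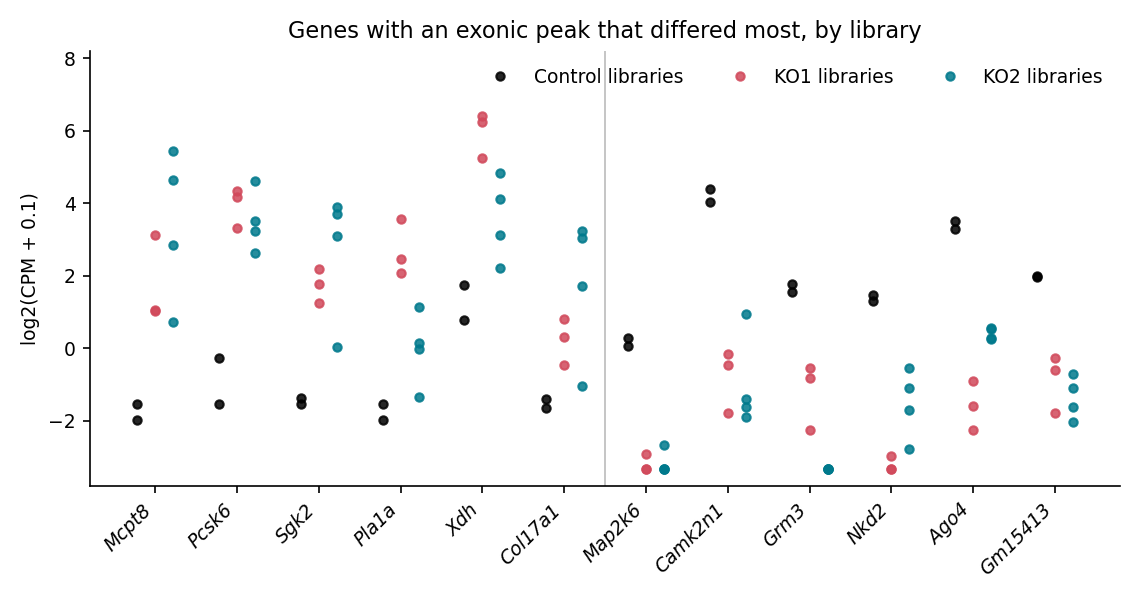
Expression of the 6 genes with an exonic peak that rose most (left of the line) and the 6 that fell most (right), as log2(CPM + 0.1) in each library: Control (black, 2), KO1 (red, 3) and KO2 (teal, 4). Each point is 1 library, and knockout and control points do not overlap for any of the 12, which the naming rule asked for.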

How the data were processed

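RNA-seq values are the raw counts per gene deposited by the authors, who aligned polyA-selected single-end reads to GRCm38 by STAR and ran HTSeq on GENCODE vM5. Reads not assigned to a gene (33.9 to 37.0%) were left out. The library labelled KO2 replicate 2 lists every gene 3 times with the same count, and each was used once. For ChIRP-seq, the authors aligned reads with Bowtie2 and called peaks with HOMER over the Ppib pulldown, with 1 list for each pool and cell type, and the deposited peak score is used within the list. No column of the authors' own comparisons was used.

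Exon class, part and gene were read from GENCODE vM21 (GRCm38) through the transcript in each annotation, since the vM16 annotation of the authors was not used here. With vM21 the class came out as in the list for 98.5% of all peaks. Overlap of lists needed 1 bp. Oligo sequences are those of the study's supplement and were searched exactly in GRCm38 (RefSeq) on both strands. Shares have 95% Wilson intervals, which cover counting error only.

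Counts were tested on all 15023 genes kept by filterByExpr with edgeR 4.0.16 (R 4.3.3), using TMM library sizes and the quasi-likelihood test, and p-values were adjusted after Benjamini-Hochberg and called under 0.1. KO1, KO2 and their difference were taken from a fit of 3 groups, and DESeq2 1.42.0 was an alternative. The fit was tested on simulated counts. Of the genes, 44585 of 45318 were given a symbol and 733 were used by identifier. No libraries of a group agreed within sampling noise. Peaks and shares were computed in Python 3.11.15 with numpy 2.4.6, pandas 2.3.3 and scipy 1.17.1.

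The peaks named are the 15 with the highest scores, the 5 longest, the 10 highest in all 4 lists, and the highest with a match to each oligo. For the oligos, peaks on chromosome 18 were left out, and the next peak was taken where the highest was the MaTAR25 peak itself. The genes named are the 5 with the most peaks, 6 risen and 6 fallen genes with the largest changes (called, a group mean of 1 CPM or more, libraries that do not overlap), and up to 4 of each gene list by peak score. The words within oligos 4 and 12 were chosen after their values were seen. The members and the gene lists were chosen with earlier results of these data known. The sequences of ChIRP reads and the depth of ChIRP libraries were not analysed here.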

Additional observations from a re-analysis of the deposited data

Results flagged for a closer look

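Among 17 named genes that were checked for a KO2 library far from the other 3, 2 had one. The cutoff is set so that about 1 in 20 groups of normally distributed values pass it. That rate need not hold for CPM values near 0, so the count of 2 cannot be set against chance. For Map2k6 the gap of the highest library divided by the range was 1.0 (0, 0, 0 and 0.0558 CPM), at very few counts. With the other 3 libraries at 0 this ratio is 1.0 whatever the highest value. For Camk2n1 it was 0.933 (0.168, 0.225, 0.279 and 1.81 CPM).

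Among the 12 genes that rose or fell most, the log2 fold changes of 5 differed between the clones by edgeR's quasi-likelihood test of the difference, and 291 of the 1416 tested genes with an exonic peak did. KO1 minus KO2 was 2.73 for Pla1a (adjusted p = 0.0227), 2.17 for Xdh (adjusted p = 0.0367), −4.71 for Nkd2 (adjusted p = 0.0283) and −2.20 for Ago4 (adjusted p = 0.0156). For Grm3 it was 6.99 (adjusted p = 0.0138), a fitted value that depends on the prior count, because all KO2 libraries are at 0.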

How the results depend on the processing

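The KO count of 296 genes was 184 at an adjusted p under 0.05, 172 with the replicate number as a block and 445 with the clones averaged in the fit of 3 groups, and it ranged from 36 to 344 when each library was left out in turn. The KO1 count of 425 was 736 with KO1 and control libraries alone and 129 to 522 when a library was left out, and the KO2 count of 428 was then 132 to 499. DESeq2 (366 for KO), RLE size factors (297), no filter (235), at least 10 counts in every library (273) and genes taken by nearest promoter (248) stayed within 1.5 times. The same numbers do not pair the libraries (correlations of −0.11 to 0.0457), and the replicate block gave 364 in KO1 and 357 in KO2. Of 254 alternatives of the 19 called named genes, 212 kept the call, 42 lost it, 27 of these with a control library left out, and 0 reversed. Among the 522 alternatives of the named genes that were not called, 36 changed sign and 7 passed the threshold.

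Of the exonic peaks with a score of at least 100, 80.4% were in the even list, 58.4% in the odd list, 84.0% in the NDL list and 39.6% in all 3, 37.4% held an oligo match and 32.6% lay in inner exons. Without chromosomes 2 and 3 the even share was 63.7%. An oligo match of 10 bases was in 64.3% and one of 14 bases in 3.54% of exonic peaks. Without single-exon transcripts, 52.5% lay in last, 38.4% in inner and 9.05% in first exons. An overlap of at least 50% of the peak, exon class over all transcripts and 0.5 CPM as the minimum moved no value beyond its interval or by over 1.5 times. The peak lists hold no replicates, so no spread between pulldowns could be given.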
